A study of Mus musculus with 4 samples.

Results

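PKCbeta, the product of Prkcb, is a kinase of the protein kinase C family that is activated by calcium and diacylglycerol. In B lymphocytes it links the antigen receptor to NF-kB, whose transcription factors induce genes of survival, adhesion and inflammation. PMA, a phorbol ester, takes the place of diacylglycerol and activates PKC and RasGRP enzymes, and a calcium ionophore raises cytosolic calcium, so both drugs together bypass the receptor. The comparison described here asks which genes answered these drugs unequally in wild-type B cells and in B cells of Tilcara mice, described as a PKCbeta mutant.

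All 4 of the 4 arrays of the series enter the comparison, 1 per group. The groups were non-stimulated wild type, stimulated wild type, non-stimulated Tilcara and stimulated Tilcara, all on C57BL/6. Stimulation was for 4 h with 10 ng/mL PMA and 1 µM of the ionophore A23187. Cells came from spleens, thymi and lymph nodes and were sorted by B220, a surface protein of B cells. The kind of mutation that Tilcara carries, the age of the mice and the number of mice behind each array are not stated in the sources used here. For each gene the difference between responses was computed as stimulated minus non-stimulated in Tilcara, minus the same in wild type, on log2 RMA signals (array intensities, where a step of 1 is 2-fold). It equals the Tilcara-minus-wild-type difference of the stimulated arrays minus that of the non-stimulated arrays, so each of the 4 arrays carries the same weight. A negative value means that the Tilcara response was the lower. Each group being a single array, replicate error could not be estimated, and the values below are differences between single arrays with no test.

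Of 22180 genes with a probe set of their own, 12456 reached the signal floor of 3.83 in at least 1 array and were used. The array medians lay between 3.73 and 3.79. All 10 B cell markers that had a probe set reached the floor in every array, with a median signal of 10.69 and 8.04 without and with stimulation in wild type, and of 10.79 and 8.30 in Tilcara. Prkcb itself read 9.42 without and 7.28 with stimulation in wild type, and 9.39 and 7.27 in Tilcara. Its response was the same in both genotypes to within 0.02, so its RNA level does not tell the genotypes apart. In bulk RNA of this kind, fewer cells of a type and less RNA per cell cannot be told apart.

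The responses were close to equal for most genes. The difference between responses had a median of 0.0008 and an SD over genes of 0.47, and 90% of genes lay between -0.72 and 0.76. It was 1 or more lower in Tilcara for 206 genes, which is 1.65% of those used, and 1 or more higher for 289 genes, which is 2.32%. Together these 495 genes are 3.97% of those used. Of them, 23 were lower and 25 were higher by at least 2, which is 4-fold. The size of 1 corresponds to a ratio of 2 between the fold responses, and it is a size chosen for counting, not a test. With signals below the floor raised to it, 132 of the 206 and 190 of the 289 genes still reached 1 in the same direction, so part of these counts rests on signals at background.

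**Figure D1:**
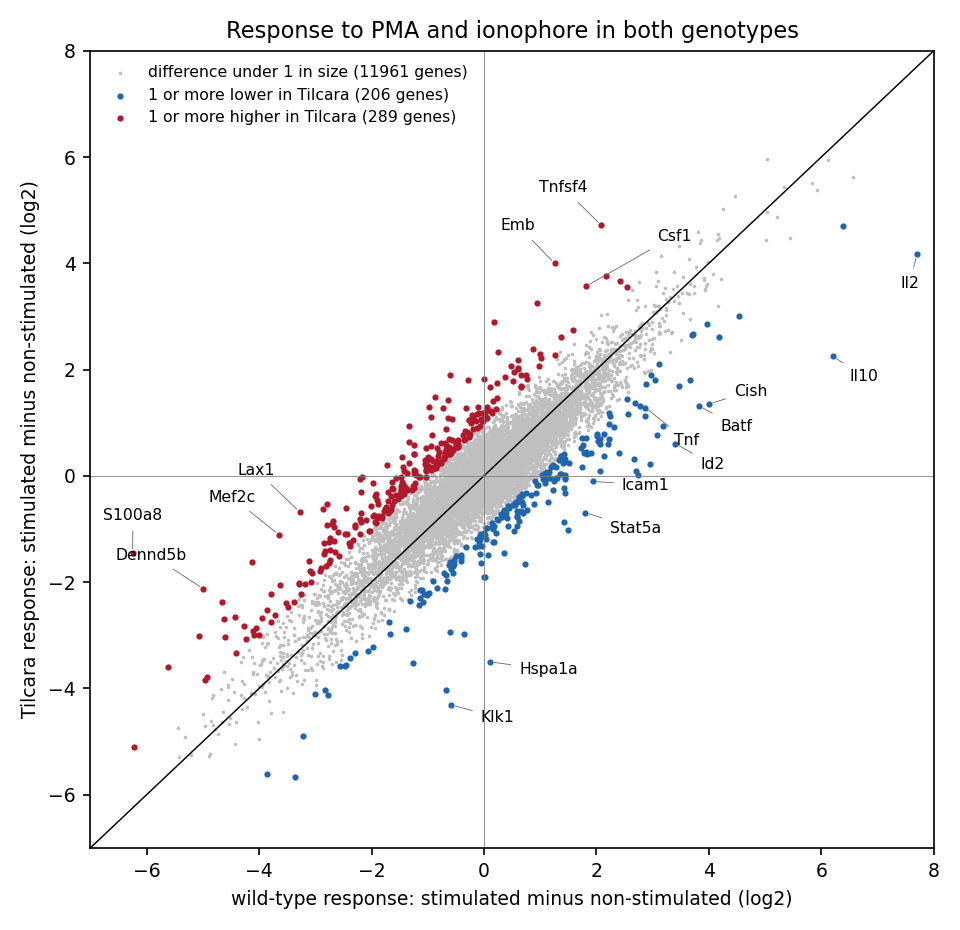
Response to PMA and ionophore in wild type (x axis) and in Tilcara (y axis), both as stimulated minus non-stimulated log2 signal, with 1 point for each of the 12456 genes used. Blue points are the 206 genes with a response at least 1 lower in Tilcara and red points the 289 genes at least 1 higher; the diagonal marks equal responses, and Il10, Il2, Id2, Cish and Batf lie far below it.

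Genes with unequal responses were sorted by the kind of inequality. The most frequent kind was a wild-type decrease of 1 or more that was smaller in Tilcara or turned into an increase under 1. It held 159 genes, with a median response of -1.97 in wild type and -0.70 in Tilcara. A wild-type increase of 1 or more that was smaller or reversed in Tilcara was seen in 89 genes, with median responses of 1.93 and 0.42. A Tilcara decrease of 1 or more that was larger than in wild type, or met by an increase there, was counted in 73 genes. The like Tilcara increase was counted in 63 genes. In 110 genes neither response alone reached 1 in size. The microRNA gene Mir1951 alone had responses of 1 or more in opposite directions, 1.49 in wild type and -1.01 in Tilcara, but each was taken against a signal below the floor. Raised to the floor they were 0.56 and -0.05, and no gene was then of this kind. These medians follow from the way the kinds are defined and describe the genes only.

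The unequal genes were more frequent among genes with a strong shared response. Where the mean of both responses was 3 or more, 9.09% of 88 genes were at least 1 lower in Tilcara and 3.41% were at least 1 higher. Where it was under -3, 11.2% of 205 genes were at least 1 higher and 4.39% were at least 1 lower. Among the 9094 genes with a mean response between -1 and 1 the shares were 1.72% higher and 1.18% lower. In the direction of the response, then, the strongly induced genes were more often lower than higher in Tilcara and the strongly repressed genes more often higher than lower. A line through the origin, fitted to 3362 genes, those averaging a response of 1 or more in either direction, gave a Tilcara response of 0.937 times the wild-type response.

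**Figure D2:**
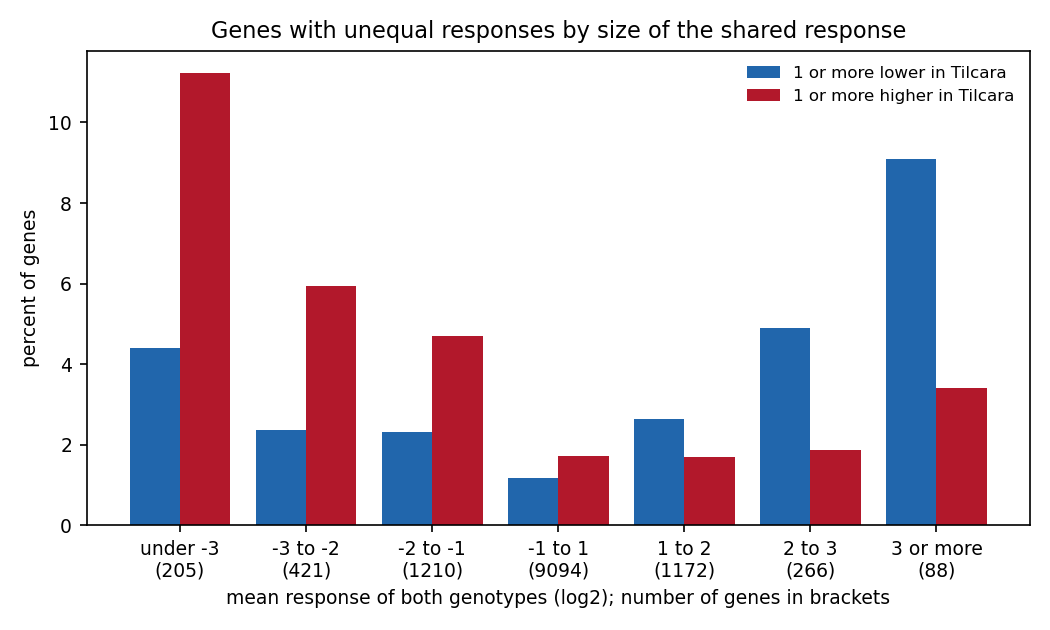
Percent of genes (y axis) whose response was at least 1 lower (blue) or higher (red) in Tilcara, for genes grouped by the mean log2 response of both genotypes (x axis, with the number of genes in brackets). Red bars exceed blue bars among repressed genes, with 11.2% against 4.39% in the lowest group, and blue bars exceed red bars among induced genes, with 9.09% against 3.41% in the highest.

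The state in which the genotypes differed was also counted. A difference of at least 1 between the stimulated arrays, with under 0.5 between the non-stimulated ones, was found for 55 of the genes that were lower and 69 of those that were higher. The reverse, a difference that lay in the non-stimulated arrays, was found for 21 and 37 genes. The remaining 313 genes, 130 lower and 183 higher, drew on both states, and 303 of them differed between the genotypes in opposite directions in the 2 states, a pattern that choosing genes by the difference between responses favours by construction. Genes such as Batf, Il2, Lax1 and Mef2c belong to the first kind, and S100a8, S100a9 and Klk1 to those with a large difference without stimulation.

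**Figure D3:**
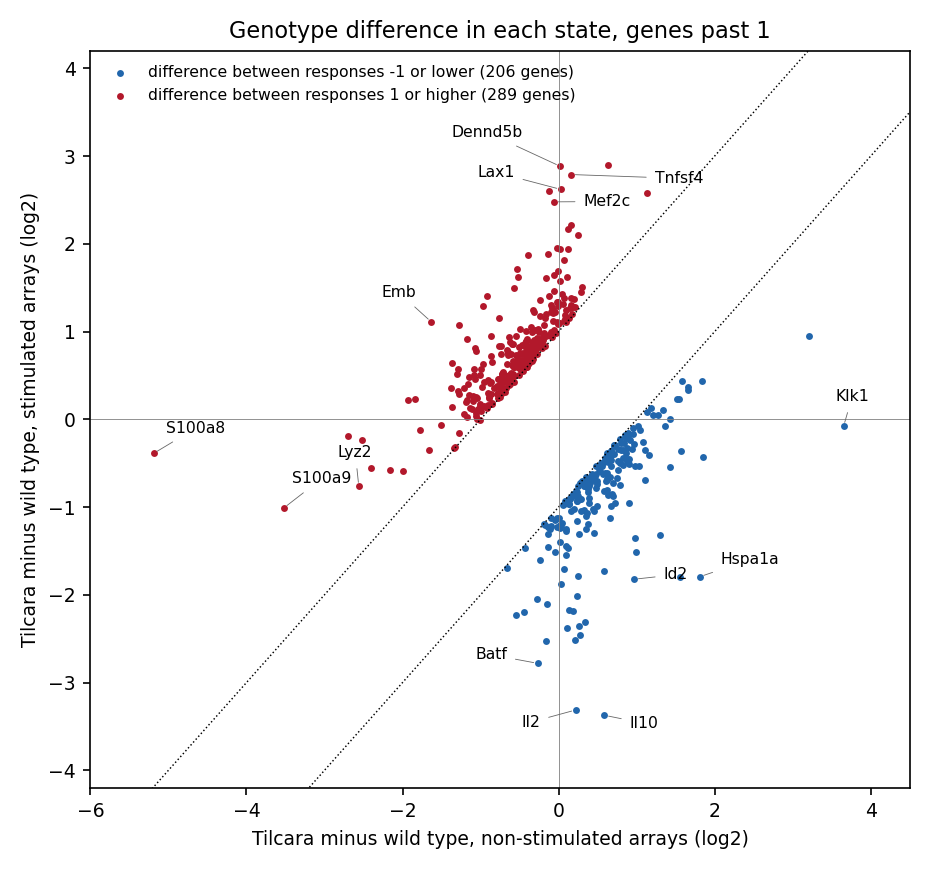
Tilcara minus wild type in the non-stimulated arrays (x axis) and in the stimulated arrays (y axis), in log2, for the 206 genes with a response at least 1 lower in Tilcara (blue) and the 289 genes at least 1 higher (red). The dotted lines mark a difference between responses of -1 and 1. Il10, Il2 and Batf differ mainly between the stimulated arrays, while S100a8 and Klk1 differ between the non-stimulated arrays.

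NF-kB targets and regulators had lower responses in Tilcara almost throughout. Of 26 listed genes 24 were measured, 7 were at least 1 lower and none was at least 1 higher, beside 1.65% and 2.32% of all genes used. These shares stand beside the count of every list below. The difference was below 0 in 23 of the 24, with a median of -0.75, against 0.0008 over all genes. The 7 were Icam1, Gadd45b, Traf1, Bcl2l1, Tnf, Tnfaip3 and Cd40. The exception was Rel, the c-Rel subunit, which read 9.82 without and 10.72 with stimulation in wild type and 9.77 and 10.73 in Tilcara.

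Among the inhibitors of the pathway, Tnfaip3, which encodes the ubiquitin-editing enzyme A20, read 6.92 without and 9.70 with stimulation in wild type, and 6.87 and 8.19 in Tilcara. The genotypes differed little without stimulation, and the stimulated Tilcara array was the lower of its pair, giving a difference between responses of -1.46. Nfkbia, which encodes the inhibitor IkB alpha, read 9.15 and 9.70 in wild type and 9.20 and 8.77 in Tilcara, a difference of -0.98, just short of the counted size. Its signal was thus higher after stimulation in wild type and lower after stimulation in Tilcara. The related inhibitors Nfkbid, Nfkbiz, Nfkbib and Nfkbie had differences of -0.81, -0.80, -0.40 and -0.40.

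The adhesion molecule Icam1, a ligand of the integrin LFA-1, had the largest difference of the list. It read 5.70 without and 7.63 with stimulation in wild type and 5.95 and 5.84 in Tilcara, so that only the stimulated wild-type array stood above the others, and the difference between responses was -2.03. Traf1, an adaptor of TNF receptors, followed the same pattern, with 5.93 and 7.37 in wild type and 5.99 and 5.67 in Tilcara, a difference of -1.77. Gadd45b, a stress-response gene that limits JNK signalling, read 7.50 and 10.98 in wild type and 8.16 and 9.85 in Tilcara. It was higher after stimulation in both genotypes, less so in Tilcara, and the difference was -1.79.

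A survival gene and a receptor of the list were also lower. Bcl2l1, which encodes the anti-apoptotic protein Bcl-xL, read 4.39 and 7.27 in wild type and 3.95 and 5.07 in Tilcara, a 7.32-fold and a 2.18-fold response and a difference of -1.75. It was the only one of 12 measured BCL2 family genes past 1, and the median of that family was -0.21. Bcl2 was lower after stimulation in both genotypes, by -2.76 in wild type and -3.39 in Tilcara. Cd40, the receptor of T cell help, was also lower after stimulation in both, with 8.26 and 7.24 in wild type and 8.24 and 6.02 in Tilcara, a difference of -1.21.

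Members with nearly equal responses were Irf4, a factor of plasma cell fate, at -0.03, Irf1 at -0.10 and Cd83, an activation marker, at -0.17. Irf4 read 8.43 and 10.53 in wild type and 8.21 and 10.28 in Tilcara, with a like increase in both. The subunit genes Nfkb2 and Relb had differences of -0.85 and -0.32. Nfkb1 and Bcl2a1b had no probe set of their own and were not analysed here.

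To show the letters that lie in front of these genes, 2 promoter windows are given, that of Tnfaip3 because it held 2 matches to the NF-kB consensus and that of Nfkbia because it is the classical inhibitor gene of the pathway. Each is the 250 bases before the gene start in RefSeq on GRCm38.p6, 5′ to 3′ on the strand of the gene, with matches in capitals. The window of Tnfaip3 is chr10:19015411-19015660 on the minus strand, with matches that begin 125 and 12 bases before the start. That of Nfkbia is chr12:55492648-55492897 on the minus strand, with a match that begins 29 bases before the start.
Tnfaip3: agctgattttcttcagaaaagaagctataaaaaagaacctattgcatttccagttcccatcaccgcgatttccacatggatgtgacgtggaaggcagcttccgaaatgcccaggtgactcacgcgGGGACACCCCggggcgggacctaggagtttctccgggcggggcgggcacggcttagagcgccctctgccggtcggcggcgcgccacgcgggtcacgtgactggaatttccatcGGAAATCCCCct
Nfkbia: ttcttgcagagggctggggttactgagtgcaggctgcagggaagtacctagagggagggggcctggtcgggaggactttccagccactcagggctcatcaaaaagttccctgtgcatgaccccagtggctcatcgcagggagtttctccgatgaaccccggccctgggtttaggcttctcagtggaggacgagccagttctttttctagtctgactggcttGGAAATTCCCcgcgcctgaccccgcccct

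The consensus was searched on both strands in such windows, matched to genes by symbol. It was present in 17.6% of windows of the clearly expressed genes (a highest signal at least 2 above the floor) that were at least 1 lower in Tilcara, 18 of 102 windows. It was present in 5.22% of windows of those at least 1 higher, 6 of 115, and in 8.74% of windows of those under 1 in size, 561 of 6417. Over all 32851 windows of the table the share was 7.25%, and in the NF-kB list it was 44.8%, 13 of 29 windows. Windows of 78 of the 93 lower genes and 86 of the 115 higher genes were in the table. The AP-1 motif TGANTCA stood in 3.92% of windows of the lower genes, in 8.70% of the higher genes, in 3.83% of the clearly expressed genes under 1 in size and in 6.75% of all windows. The lower genes were thus at the share of the clearly expressed genes, and the higher genes, with 10 of 115 windows, above it. A match describes letters only, and no window of Icam1, Traf1, Batf, Gadd45b, Tnf or Il2 held a match to the NF-kB consensus.

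The interleukin-2 and STAT5 axis also had lower responses in Tilcara. IL-2 binds a receptor of Il2ra, Il2rb and a common chain, whose kinases JAK1 and JAK3 activate STAT5, and STAT5 induces Cish and other feedback inhibitors. Of 16 listed genes 14 were measured and 13 were below 0. Of them 5 were at least 1 lower (Il2, Cish, Stat5a, Socs3 and Stat5b) and none was at least 1 higher, beside 1.65% and 2.32% of all genes used. The median was -0.60.

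Il2, the ligand, read 2.08 without and 9.78 with stimulation in wild type and 2.30 and 6.47 in Tilcara. It was at background in both non-stimulated arrays and far above it in both stimulated ones, with the wild-type array the higher by 3.31. The difference between responses was -3.53, the fourth lowest of all genes used. The receptor chain Il2ra had a nearly equal response, with 4.57 and 10.68 in wild type and 4.63 and 10.58 in Tilcara, a difference of -0.16. Il2rb was near the floor in all arrays, with a highest signal of 4.43.

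The transducers came next. Stat5a read 5.59 without and 7.39 with stimulation in wild type and 5.70 and 5.01 in Tilcara. The responses had opposite directions, 1.80 in wild type and -0.69 in Tilcara, and the difference was -2.49. Stat5b was lower after stimulation in both, with 6.56 and 6.03 in wild type and 6.45 and 4.78 in Tilcara, a difference of -1.14. The kinase Jak1 had responses of -0.70 and -1.27, a difference of -0.57.

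Feedback inhibitors of cytokine signalling differed unequally among themselves. Cish read 4.07 and 8.07 in wild type and 4.41 and 5.76 in Tilcara, a 16-fold and a 2.55-fold response and a difference of -2.65. Socs3 read 4.91 and 8.0 in wild type and 5.49 and 6.27 in Tilcara, a difference of -2.31. Socs1 and Socs2, by contrast, had differences of -0.15 and -0.28. Pim1, a kinase gene induced by STAT5, had a difference of -1.0, just short of the counted size, and Pim2 had 0.27.

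STAT dimers bind the palindrome TTCNNNGAA. It was present in 5.88% of windows of the clearly expressed lower genes, in 6.96% of the higher genes, in 5.84% of the clearly expressed genes under 1 in size and in 7.02% of all windows. In the interleukin-2 and STAT5 list 1 of 17 windows held it, that of Socs3, and in the NF-kB list 8 of 29 did. The windows of Socs3 (chr11:117969367-117969616, minus strand, match 154 bases before the start) and of Icam1 (chr9:21015690-21015939, plus strand, match 42 bases before the start) are shown as the genes past 1 in these lists that carry it, with the match in capitals.
Socs3: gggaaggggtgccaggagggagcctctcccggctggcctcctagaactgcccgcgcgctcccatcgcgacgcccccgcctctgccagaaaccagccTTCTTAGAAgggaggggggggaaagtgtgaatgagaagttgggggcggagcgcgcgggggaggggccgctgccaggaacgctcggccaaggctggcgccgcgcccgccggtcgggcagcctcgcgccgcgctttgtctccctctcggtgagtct
Icam1: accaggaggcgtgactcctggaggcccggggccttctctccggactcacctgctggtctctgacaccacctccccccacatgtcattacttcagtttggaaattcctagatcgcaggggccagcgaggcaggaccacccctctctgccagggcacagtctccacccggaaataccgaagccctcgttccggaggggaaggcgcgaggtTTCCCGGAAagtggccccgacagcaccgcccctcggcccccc

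**Figure D4:**
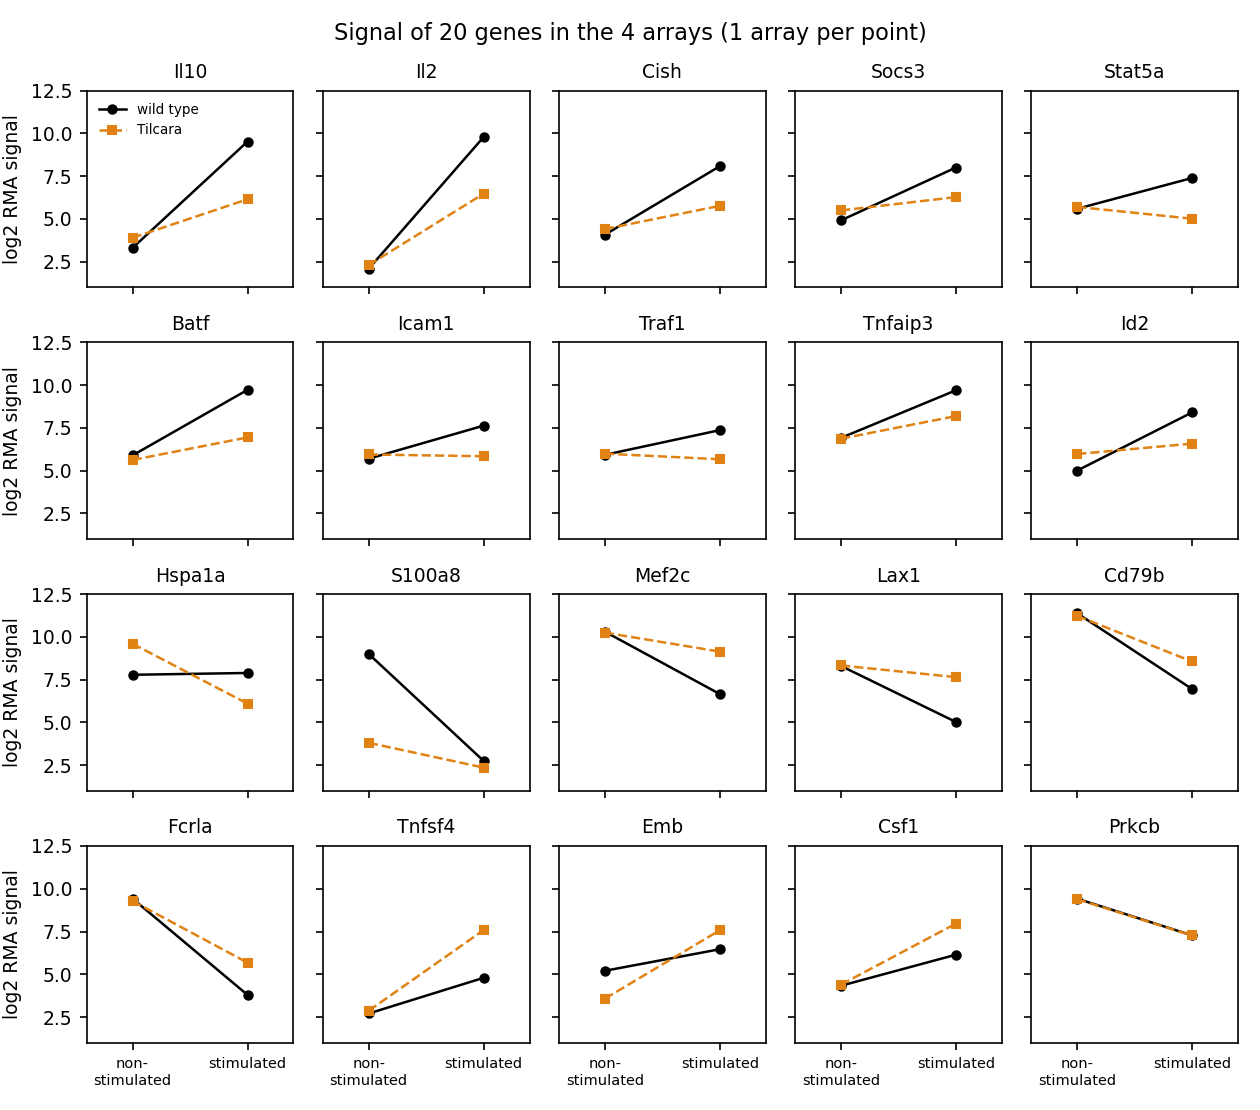
Log2 RMA signal (y axis) of 20 genes without and with stimulation (x axis) in wild type (black circles, solid line) and Tilcara (orange squares, dashed line), with 1 array per point. Il10, Il2, Cish, Socs3, Batf and Id2 climb less in Tilcara, Stat5a, Icam1 and Traf1 climb in wild type only, Mef2c, Lax1, Cd79b and Fcrla drop less in Tilcara, and the lines of Prkcb overlie each other.

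Cytokine genes contained the gene with the lowest value of all. Il10, an anti-inflammatory cytokine of regulatory B cells, read 3.31 without and 9.52 with stimulation in wild type and 3.90 and 6.14 in Tilcara. Both non-stimulated arrays were near the floor, the stimulated wild-type array was the highest, and the difference between responses was -3.96, a ratio of 15.6 between the fold responses. With signals below the floor raised to it, the difference was -3.44. Of 28 listed cytokines 21 were measured, with a median of -0.60. Of these 9 were at least 1 lower and 2 at least 1 higher, beside 1.65% and 2.32% of all genes used. All 9 were still past 1 with low values raised to the floor, while among the 11 cytokines whose highest signal was at least 2 above the floor 5 were.

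The other 7 lower cytokines beside Il10 and Il2 had differences from -2.72 to -1.03. Tnf, an inflammatory cytokine, read 7.31 and 10.18 in wild type and 7.43 and 8.72 in Tilcara, a difference of -1.58. Vegfa, a growth factor of blood vessels, read 3.69 and 8.23 in wild type and 4.37 and 7.38 in Tilcara, a difference of -1.53. Ebi3, a subunit of IL-27 and IL-35, had a difference of -1.12, or -1.73 over the mean of its probe sets, and was just under 1 in size after repeated quantile normalization. Il1a, Il17a, Lif and Il13 made up the rest at low signals, with highest values between 4.91 and 5.46, each in the stimulated wild-type array. Il1a and Il17a were above the floor in that array alone, so their differences of -2.72 and -2.62 rest on background signals, and with low values raised to the floor they were -1.07 and -1.35.

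The 2 higher cytokines were Csf1, the macrophage growth factor, and Il1b. Csf1 read 4.33 and 6.15 in wild type and 4.40 and 7.96 in Tilcara, so its response was the larger in Tilcara by 1.75. Il1b read 4.70 and 3.36 in wild type and 2.54 and 2.79 in Tilcara, and its difference of 1.58 came from the non-stimulated wild-type array, the only one above the floor. Raised to the floor, the difference of Il1b was 0.87 and no longer past 1. Ifng had nearly equal responses, with 3.90 and 7.81 in wild type and 4.28 and 7.96 in Tilcara.

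Chemokines were measured for 12 of 15 listed genes, with a median of -0.53. There was 1 lower and 1 higher, beside 1.65% and 2.32% of all genes used. Ccl22, which attracts cells that carry CCR4, read 3.62 and 6.29 in wild type and 3.46 and 3.77 in Tilcara, a difference of -2.37. Only its stimulated wild-type signal was above the floor, and with low values raised to it the difference was -2.46. The most strongly induced chemokines responded in both genotypes, Ccl4 with 6.56 in wild type and 5.62 in Tilcara, Ccl3 with 5.93 and 5.38, and Xcl1 with 4.16 and 4.54. The gene past 1 in the other direction was Cxcl9, at 1.27 and with no signal over 4.33. Its non-stimulated Tilcara signal was below the floor, and raised to it the difference was 0.55, no longer past 1.

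Since Il2, Il17a and Ifng are cytokines of T cells and NK cells, the markers of those cells are given beside them. Of 17 T cell markers 13 had a probe set, and 8, 7, 5 and 4 of them reached the floor in non-stimulated and stimulated wild type and in non-stimulated and stimulated Tilcara. Their summed signal on the linear scale was 267, 225, 181 and 161 in the same order, so it was lower in Tilcara in both states. Of the defining markers, Cd3e read 3.99, 3.54, 3.60 and 3.54, and Cd3d read 5.09, 3.28, 4.59 and 3.61. Both were thus under the floor in the stimulated arrays. The brightest T cell markers were not. Lat, an adaptor of the T cell receptor, read 5.62, 5.12, 4.87 and 4.39, and Thy1, a surface protein of T cells, read 5.40, 5.01, 3.54 and 3.84. Between the stimulated arrays Tilcara minus wild type was -0.73 for Lat and -1.17 for Thy1. It was 0.33, 0.40 and 0.36 for Cd3d, Cd3g and Cd8b1 and 0.0 for Cd3e, all under the floor there. Every other T cell marker with a probe set was below 0 in this comparison. For Il2, Il17a and Ifng the same values were -3.31, -2.36 and 0.15. All 11 NK cell markers had a probe set, with a summed signal of 326, 165, 359 and 146, and Ncr1 read 4.64, 3.45, 4.47 and 3.58. In their own responses the 12 measured T cell markers had a median difference of 0.14. Of them 2 were at least 1 lower (Ctla4 and Cd28) and 2 at least 1 higher (Cd3g and Cd8b1), beside 1.65% and 2.32% of all genes used. None of these 4 was past 1 with low values raised to the floor, where Ctla4, Cd28, Cd3g and Cd8b1 were at -0.71, -0.60, 0.38 and 0.21. None of 9 NK cell markers passed 1, with a median of -0.20. The part of T cells and NK cells in the cytokine values was not tested.

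Genes of the regulatory B cell list were split in direction. Of 18 listed 15 were measured, 3 were at least 1 lower (Il10, Cd274 and Ebi3), 1 was at least 1 higher (Maf), and 8 were above 0. The median was 0.20 and the mean -0.23, of opposite sign, and with low values raised to the floor the median was -0.08. Prdm1, Tgfb1, Ahr and Nfil3 had differences of 0.70, 0.72, 0.76 and 0.77. For Ahr and Nfil3, Tilcara minus wild type was -1.07 and -0.72 without stimulation, and -0.31 and 0.05 with it.

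AP-1 and related factors were mixed. AP-1 is formed by pairs of FOS, JUN and BATF proteins and cooperates with NFAT at cytokine genes. Of 19 listed genes 16 were measured, 3 were lower (Batf, Fosb and Junb), 2 were higher (Maf and Bach2) and the median was -0.41. Batf read 5.89 without and 9.72 with stimulation in wild type and 5.63 and 6.94 in Tilcara, a difference of -2.51, and the stimulated wild-type array stood above the other 3.

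Junb and Fosb were lower after stimulation in both genotypes and more so in Tilcara. Junb read 8.17 and 8.02 in wild type and 8.44 and 7.10 in Tilcara, a difference of -1.18, and that of Fosb was -1.29. Bach2, a repressor that holds back plasma cell fate, read 8.55 and 7.86 in wild type and 7.90 and 8.28 in Tilcara, a difference of 1.08. The 2 probe sets of Maf disagreed, at 1.08 and -0.52.

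MAPK feedback genes, which are induced by ERK and its relatives and dampen them, had 1 of 18 measured genes past 1, with a median of -0.27 and 15 genes below 0. This was Dusp10, a phosphatase of JNK and p38, which read 6.34 and 6.25 in wild type and 6.38 and 5.07 in Tilcara, a difference of -1.22. Ier2 and Dusp16 had differences of -0.91 and -0.86.

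Genes induced through calcium and NFAT were split. Of 20 measured genes 1 was lower, Il2, and none was higher, and the median was -0.16. The orphan receptor Nr4a1 had responses of 3.12 in wild type and 2.83 in Tilcara, and Egr2, a zinc finger factor, had 3.53 and 3.74. Nr4a3 was at -0.97, while Nr4a2, Rcan1, Egr3 and Nfatc1 were at 0.79, 0.75, 0.72 and 0.70. Rcan1 encodes a regulator of calcineurin, and Nfatc1 encodes a calcineurin-activated factor.

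Activation surface molecules included 5 lower genes and 1 higher gene among 23 measured of 25 listed, with a median of -0.18. Of the lower genes, Icam1 and Cd40 are also counted in the NF-kB list, and Cd274 in the regulatory B cell list. Lrrc32, which encodes the latent TGF-beta receptor GARP, read 3.91 and 6.87 in wild type and 4.19 and 4.41 in Tilcara, so it was near the floor in 3 of the 4 arrays, and the difference was -2.74. Both ligands of the receptor PD-1 were among the lower genes. Cd274 (PD-L1) read 6.79 and 9.36 in wild type and 6.80 and 7.96 in Tilcara, a difference of -1.41. Pdcd1lg2 (PD-L2) had responses of 1.44 and 0.01, a difference of -1.43.

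In the same list Tnfsf4, the ligand of the costimulatory receptor OX40, was the gene with a larger increase in Tilcara. It read 2.71 and 4.80 in wild type and 2.87 and 7.59 in Tilcara, a difference of 2.63. Responses were nearly equal for Cd86, a costimulatory ligand, and Tfrc, the transferrin receptor, with differences of 0.08 and -0.14. Cd80 was below the floor in every array and was not measured. The early activation marker Cd69 had a difference of -1.0, just short of the counted size.

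**Figure D5:**
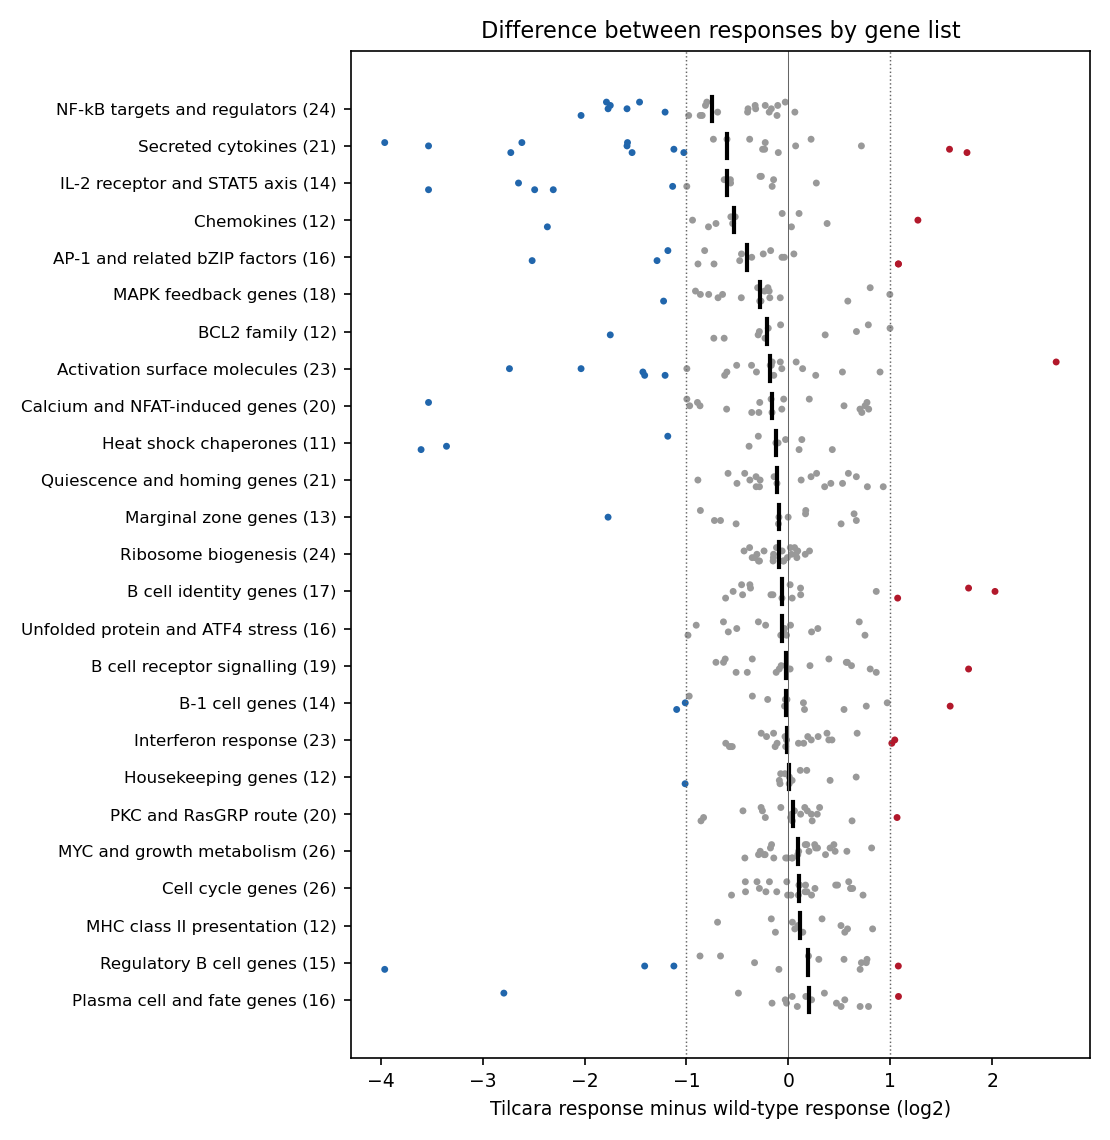
Difference between responses, Tilcara minus wild type in log2 (x axis), for the measured members of 25 gene lists (y axis, with the number of members in brackets). Each point is a gene, blue or red where it is at least 1 lower or higher, and the bar is the median of the list. The NF-kB list has the lowest median, -0.75. The ribosome biogenesis, growth and cell cycle lists have no member past 1, beside 3.97% of all genes used.

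Fate and subset genes held single large values. Id2, an inhibitor of E protein transcription factors, read 5.0 without and 8.40 with stimulation in wild type and 5.97 and 6.58 in Tilcara. Its increase was 10.5-fold in wild type and 1.52-fold in Tilcara, and the difference was -2.79. Its relative Id3 had 0.79. The list of plasma cell and fate genes, Id2 included, had a median of 0.20, with 11 of 16 above 0. In it 1 gene was at least 1 lower, Id2, and 1 at least 1 higher, Bach2 at 1.08, beside 1.65% and 2.32% of all genes used. Among marginal zone genes Plxnd1, a semaphorin receptor, was the only one of 13 past 1, at -1.77. It read 3.73 and 5.86 in wild type and 3.45 and 3.81 in Tilcara, above the floor in the stimulated wild-type array alone. With low values raised to the floor its difference was -2.03. Among 14 B-1 cell genes Ctla4 and Zbtb32 were lower, at -1.10 and -1.01, and Ptpn22, a phosphatase that limits antigen receptor signalling, was higher at 1.59. Ctla4 read 2.73 and 4.54 in wild type and 2.60 and 3.32 in Tilcara, above the floor in 1 array, and with low values raised to the floor its difference was -0.71. With the wild-type response scaled by the slope, Ctla4 was at -0.98 and Zbtb32 at -0.82.

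Further genes with a clear signal and a much lower value in Tilcara lay outside the lists. Slc15a3, a transporter of lysosomal membranes, read 5.92 and 9.10 in wild type and 6.15 and 7.09 in Tilcara, a difference of -2.25 and a smaller increase in Tilcara. In Coro2a and Swap70 the signal was instead higher after stimulation in wild type and lower in Tilcara, and the Tilcara response was the larger in size. Coro2a, an actin-binding coronin, read 6.79 and 7.52 in wild type and 6.98 and 5.33 in Tilcara, and its second probe set agreed in sign, at -1.29 against -2.38. Its responses were 0.73 in wild type and -1.65 in Tilcara. Swap70, which couples receptors to Rac and actin in B cells, read 9.03 and 9.62 in wild type and 9.12 and 8.17 in Tilcara, with responses of 0.59 and -0.95. Without stimulation Tilcara was higher by 0.19 in Coro2a and by 0.09 in Swap70.

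Heat shock genes gave 3 of 11 measured past 1, all lower, beside 1.65% of all genes used that were lower, while the median was -0.12. Hspa1a, an inducible HSP70 chaperone, read 7.79 and 7.89 in wild type and 9.60 and 6.10 in Tilcara, a difference of -3.60. Hspa1b read 9.15 and 8.48 in wild type and 10.71 and 6.68 in Tilcara, a difference of -3.35. The Tilcara signal of Hspa1a was 1.81 higher without stimulation, and with stimulation it differed from wild type by -1.79, so both states contributed. Hspa1a and Hspa1b are near-identical copies whose probes may read either transcript, and they count as 1 observation of uncertain origin.

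Hsph1, a partner of HSP70, read 6.05 and 7.81 in wild type and 6.88 and 7.46 in Tilcara, a difference of -1.18. The other chaperones did not share this pattern. Hspa8, the constitutive HSP70, read between 11.73 and 12.01 in all 4 arrays, Hsp90aa1 had a difference of 0.10 and Dnajb1 one of -0.30. Of the 16 measured unfolded protein and ATF4 genes none reached 1, the median was -0.06 and Ppp1r15a at -0.99 came nearest.

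The B cell identity list was split in direction, with 9 of 17 measured genes below 0, 8 above 0 and a median of -0.06. In it 3 genes had a decrease smaller in Tilcara by at least 1 (Fcrla, Cd79b and Ikzf3) and none was at least 1 lower, beside 2.32% and 1.65% of all genes used. Tnfrsf13c and Spib went the other way, with differences of -0.62 and -0.54. Fcrla, an Fc receptor-like protein inside B cells, read 9.42 and 3.80 in wild type and 9.28 and 5.68 in Tilcara, a difference of 2.03. Cd79b, a signalling chain of the antigen receptor, read 11.39 and 6.96 in wild type and 11.23 and 8.57 in Tilcara, a difference of 1.77. Its partner Cd79a had 0.86, and Ikzf3, the factor Aiolos, had 1.07, or 0.96 when the wild-type response was scaled by the slope of 0.937.

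Some other B cell genes had lower signals after stimulation by like amounts in both genotypes. Cd22, an inhibitory coreceptor, had responses of -4.78 in wild type and -4.76 in Tilcara, and Pax5, the B lineage factor, had -3.15 and -3.11. Ms4a1 (CD20) had -2.40 and -2.58. Of 19 measured genes of antigen receptor signalling only Cd79b passed 1, and the median was -0.03. Of 12 measured genes of MHC class II presentation none did, and the median was 0.12, with H2-Oa at 0.83 and Ciita, the master regulator, at -0.70.

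Mef2c, a transcription factor of mature B cells, had one of the largest values that 2 probe sets shared. It read 10.31 and 6.66 in wild type and 10.25 and 9.14 in Tilcara, a 12.5-fold decrease against a 2.16-fold decrease, and its probe sets gave 2.54 and 2.40. Lax1, an adaptor that restrains lymphocyte signalling, read 8.30 and 5.03 in wild type and 8.33 and 7.65 in Tilcara, a difference of 2.59. Dennd5b, a regulator of RAB GTPases, read 7.81 and 2.82 in wild type and 7.83 and 5.71 in Tilcara, a difference of 2.86. Its stimulated wild-type signal was below the floor, and raised to it the difference was 1.86. The second probe set of Dennd5b gave 1.41. In these 3 genes the non-stimulated arrays differed by -0.06, 0.03 and 0.02, and the large differences were between the stimulated arrays.

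Cd55, which protects cells from complement, read 9.37 and 4.30 in wild type and 9.52 and 6.52 in Tilcara, a difference of 2.06. Crisp3 and Fam169b had differences of 2.26 and 2.23, and raising low values to the floor gave 1.42 for Crisp3. In Nsmaf, an adaptor of TNF receptor signalling, in Ipcef1 and in Dhrs1 the signal was lower after stimulation in wild type and higher after stimulation in Tilcara. Nsmaf read 7.84 and 6.51 in wild type and 7.45 and 8.39 in Tilcara, a difference of 2.27. Otud1, a deubiquitinase, was at 1.25.

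Emb, Zfp948 and Ptpn22 had larger increases in Tilcara. Emb, a membrane partner of monocarboxylate transporters, read 5.21 and 6.47 in wild type and 3.58 and 7.57 in Tilcara, a difference of 2.74, with Tilcara minus wild type at -1.63 without stimulation. Its second probe set gave 0.73, and the mean of both probe sets gave 1.74. Zfp948, a zinc finger protein, read 5.96 and 6.90 in wild type and 5.04 and 8.30 in Tilcara, a difference of 2.32. Ptpn22 read 7.72 and 9.89 in wild type and 6.64 and 10.40 in Tilcara.

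The direct targets of PMA and their partners were near the shares of all genes used, 1.65% at least 1 lower and 2.32% at least 1 higher. Of 24 genes of the PKC and RasGRP route 20 were measured, none was at least 1 lower, 1 was at least 1 higher and the median was 0.05. That gene was Rasgrp3, a diacylglycerol-activated exchange factor of RAS in B cells, which read 9.12 and 6.74 in wild type and 9.33 and 8.02 in Tilcara, a difference of 1.07, or 0.92 with the wild-type response scaled by the slope. Prkca and Prkcz were lower, at -0.86 and -0.83, both at signals under 6, and Prkcd was at 0.28. Malt1 and Bcl10 had differences of 0.04 and 0.31. Dgka, a diacylglycerol kinase, had responses of -4.66 and -4.63.

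Growth programmes had no member past 1, beside 3.97% of all genes used. At that share a list of this length holds few such genes, so an empty list alone does not set it apart. None of the 24 ribosome biogenesis genes, 26 genes of MYC and growth metabolism, 26 cell cycle genes or 21 quiescence and homing genes reached 1 in either direction, and the medians were -0.09, 0.10, 0.11 and -0.11. Myc read 8.96 and 10.92 in wild type and 8.75 and 10.75 in Tilcara, a 3.90-fold and a 4.01-fold response. Nop58, a nucleolar protein, had responses of 2.41 and 1.98, and Ncl, nucleolin, had 1.33 and 1.28. Txnip, a glucose-responsive gene, came nearest to 1 at 0.93. Interferon response genes had a median of -0.02 and 2 of 23 at least 1 higher, Rtp4 at 1.02 and Ifit3 at 1.04, beside 2.32% of all genes used. After cyclic loess neither passed 1, with Rtp4 at 0.95 and Ifit3 at 0.99, and with low values raised to the floor Rtp4 was at 0.12.

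Of 12 housekeeping genes Actb, beta-actin, was past 1, with 8.11 and 7.60 in wild type and 8.73 and 7.22 in Tilcara, a difference of -1.01, or -0.95 after repeated quantile normalization. Rplp0, a ribosomal stalk protein, was at 0.67 and Gapdh, a glycolytic enzyme, at 0.41. The other 9 lay between -0.09 and 0.18, and the median was 0.01.

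Some of the largest values belonged to genes that differed without stimulation. S100a8, a calcium-binding protein of neutrophils, read 9.0 and 2.75 in wild type and 3.81 and 2.36 in Tilcara. Only the non-stimulated wild-type array was above the floor, and the difference of 4.80 was the highest of all genes. Its partner S100a9 read 7.61 and 3.48 in wild type and 4.09 and 2.47 in Tilcara, a difference of 2.51. Raised to the floor, the differences of S100a8 and S100a9 were 5.17 and 3.52. The neutrophil list as a whole had a summed linear signal of 877 in non-stimulated wild type and of 135, 139 and 116 in stimulated wild type, non-stimulated Tilcara and stimulated Tilcara, with 7, 2, 2 and 0 of 15 markers at the floor or above. Of 8 measured neutrophil markers 3 were at least 1 higher, S100a8, S100a9 and Stfa2l1, beside 2.32% of all genes used, and the median was 0.63. Stfa2l1 was above the floor only in the non-stimulated wild-type array, at 4.06, and raised to the floor its difference went from 2.15 to 0.23, no longer past 1. Ly6g, a defining marker, was below the floor in every array, with a highest signal of 2.46.

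Lyz2, a lysozyme of myeloid cells, had the same shape, with 5.99 and 3.28 in wild type and 3.43 and 2.52 in Tilcara, a difference of 1.79. The macrophage and monocyte list had a summed signal of 397 and 392 without and with stimulation in wild type and of 282 and 432 in Tilcara, a median difference of 0.40 and no other member past 1. The part of myeloid cells in these values was not tested. Klk1, a kallikrein also listed for dendritic cells, read 2.75 and 2.17 in wild type and 6.41 and 2.09 in Tilcara, a difference of -3.73 that came from the non-stimulated Tilcara array. The other arrays were below the floor, and raised to it the difference was -2.57. The summed signal of the dendritic cell list was 347 and 290 in wild type and 470 and 309 in Tilcara, and Siglech, a defining marker, read 4.93 and 3.06 in wild type and 5.06 and 3.42 in Tilcara. Klk1 was the only one of its 7 measured markers past 1, and none of 3 measured erythroid markers was. Without all marker genes of other cells, 203 genes were lower and 283 higher. This takes the marker genes out of the counts and leaves the values of the remaining genes unchanged.

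Naf1, a ribonucleoprotein assembly factor, and Slc20a2, a phosphate transporter, also differed mainly without stimulation. Naf1 read 6.33 and 6.93 in wild type and 5.18 and 7.21 in Tilcara. Slc20a2 read 5.71 and 5.82 in wild type and 4.44 and 6.11 in Tilcara. In both the non-stimulated Tilcara array was the low one, and the differences were 1.43 and 1.56.

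Probe sets of the same gene measure how far the arrays alone carry a value, since they share the RNA. Over the 635 genes with several measured probe sets, the pooled SD of the difference within a gene was 0.41. Of the 24 genes past 1 that had several, all probe sets had the same sign in 18 and all were past 1 in 8. Examples are Socs3 at -2.31 and -1.51, Myb, a transcription factor of progenitor cells, at 1.59 and 1.10, and Myo1g, a myosin of blood cells, at -1.23 and -1.09. Cish had -2.65 and -1.0, and Ebi3 had -1.12 and -2.34. Grouped by highest signal, the SD over genes was between 0.40 and 0.51 in each group, so bright genes did not vary much less than dim ones.

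Of 162 microRNA genes used, 9 were lower and 13 higher, beside 1.65% and 2.32% of all genes used. Only 3 of these 22 reached a clear signal, and the probe sets are named for the microRNA gene, not for a mature arm. Mir1898 read 7.12 and 6.56 in wild type and 5.96 and 7.04 in Tilcara, a difference of 1.64. Mir1931 and Mir467f had differences of 1.60 and 1.36. Mir1951 read 2.90 and 4.39 in wild type and 3.89 and 2.87 in Tilcara, a difference of -2.50 that was -0.61 with low values raised to the floor. Under that setting none of the 9 lower and 7 of the 13 higher microRNA genes still reached 1. The mature sequences from RefSeq are given with the seed, bases 2 to 8, in capitals, to show that these 4 share no seed.
Mir1898: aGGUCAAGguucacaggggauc
Mir1931: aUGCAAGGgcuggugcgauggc
Mir467f: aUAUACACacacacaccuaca
Mir1951: gUAGUGGAgacugguguggcua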

How the data were processed

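Gene expression of sorted mouse B cells was measured on Affymetrix arrays, 1 array for each of 4 groups taken from the sample titles. The deposited table holds 1 log2 signal per array for each of 41345 probe sets. RMA, named without a version in the submitters' processing notes, was the authors' method. It makes the arrays' distributions alike, so a change in RNA per cell cannot be seen. No genome build or software is named in the sources used here.

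By the platform annotation, 23521 probe sets carried 1 gene symbol, 1814 several and 16010 none. The gene IDs of 23328 were in the RefSeq table. Where a gene had several probe sets, as 1082 did, the brightest by mean signal stood for it. Genes were used if their highest signal reached 3.83, the median of all values of probe sets with 1 symbol.

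The difference between responses has no residual degree of freedom, so no test was made and genes were counted at a size of at least 1. Members and the 32 gene lists were chosen with earlier results of these data known. The lists held 534 genes, of which 452 were used, 36 stayed below the floor and 46 had no probe set with 1 symbol. Lists overlap, and genes such as Il2, Il10 and Tnf are counted in each list that holds them, so list counts are not independent. Named by rule were the 15 clearly expressed genes at each end, Prkcb, up to 4 members with the largest differences of each list, the 5 largest of each kind of inequality and of those differing without stimulation, and every marker of other cells past 1, in all 130 genes. Predicted genes, small RNAs, olfactory receptors and antigen receptor segments were left out. Further members and probe set examples in the text were picked with their values in view. One item is not reported here. Promoter windows and microRNA sequences came from RefSeq tables.

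Alternatives were median centring, cyclic loess and repeated quantile normalization (limma 3.58.1 in R 4.3.3), the mean over probe sets, other filters and sizes, a slope-scaled response, and leaving out markers of other cells. Raising low values to the floor and leaving out genes that differed without stimulation were added after seeing the data. Counts and medians were computed with pandas 2.3.3 in Python 3.11.15. Only the computation of the difference between responses and of the kinds of inequality was checked on simulated data. That check does not measure the error of the counts. Intensity per probe and depth are unknown, and the single array per group limits precision.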

Additional observations from a re-analysis of the deposited data

Results flagged for a closer look

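In 8 named genes the responses of the genotypes went opposite ways by at least 0.5 each, and the difference was not tested. In Stat5a (-2.49), Coro2a (-2.38), Swap70 (-1.54) and Cd28 (-1.06) the signal was higher after stimulation in wild type and lower in Tilcara. The responses of Cd28, a costimulatory receptor of T cells, were 0.56 and -0.50 at signals of 4.29 or less, and with low values raised to the floor its difference was -0.60. In Nsmaf (2.27), Ipcef1 (2.05), Dhrs1 (1.97) and Zfp369 (1.30) the signal was lower after stimulation in wild type and higher in Tilcara. Ipcef1 had responses of -0.95 and 1.10, Dhrs1 of -1.34 and 0.64, and Zfp369, a zinc finger gene, of -0.68 and 0.62. Swap70, at 8.17 to 9.62, was the brightest of the 8.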

How the results depend on the processing

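No named gene past 1 changed sign under an alternative. Of the alternative list medians, 18 values from 10 lists changed sign, and 15 of these were under 0.25 in size in both settings. The others were the T cell and erythroid medians, which went from 0.14 to -0.50 and from -0.34 to 0.43 under settings given with their values below. Of 1364 alternative values of named genes 1343 moved by less than 0.41, the pooled SD between probe sets of a gene, as did 336 of 345 list medians, and 639 of 690 list counts stayed within 1.5 times. Between 60 and 67 of the 67 named genes past 1 kept their direction and size under centring, loess, quantile normalization, averaged probe sets, slope scaling, no filter and raised low values; the lowest was with raised low values. The higher share was 58.4%, and 50.6% after centring. No paired analysis was possible because each group was 1 array, and no replicate could be left out.

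At a 1.5-fold size 1003 genes were lower and 1091 higher, and at 4-fold 23 and 25. With no filter 331 were lower, 263 had neither response past 1, 3 had opposite directions and the chemokine median was -0.12. With the highest signal at least 1 above the floor, 53 had neither, none (0) was opposite, and medians were 0.69 for T cells, 3.66 for neutrophils and 0.43 for erythroid cells. At 2 above it, 99 were lower, 134 higher, 50 had a smaller and 27 a larger increase in Tilcara, 89 a smaller and 40 a larger decrease, 27 neither and 0 opposite, with neutrophils at 3.66 and erythroid cells at 0.43. With low values raised to the floor, 103 had a smaller and 47 a larger decrease, 39 a larger increase and 0 opposite, and neutrophils were at 0.21. Without genes that differed by 0.5 or more without stimulation, 100 were lower and 144 higher, 53 and 23 had a smaller and a larger increase, 85 and 32 a smaller and a larger decrease, 51 neither and 0 opposite, with T cells at -0.50 and neutrophils at 0.10. Fewer genes enter under stricter filters; other causes were not tested.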

Other observations

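Gene families were chosen after the values were seen, and their shares past 1 stand beside 1.65% lower and 2.32% higher of all genes used. Of 284 genes for zinc finger proteins of the Zfp series, 5 were at least 1 lower and 15 at least 1 higher in Tilcara, which is 1.76% and 5.28%, with a median difference of 0.03. Among 76 small nucleolar RNAs, which guide RNA modification, 4 were lower and 1 was higher, which is 5.26% and 1.32%, with a median of -0.13. Of 59 Hsp and Dnaj genes, which encode chaperones, 4 were lower and 1 was higher. None of 71 mitochondrial ribosomal protein genes passed 1, and of 73 cytosolic ones 2 were lower and 1 was higher. The 8 measured GIMAP genes, lymphocyte GTPases, had none past 1 and a median of -0.19.

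Of 72 olfactory receptor genes 3 were lower and 5 higher, which is 4.17% and 6.94%. Of 37 Trim genes 3 were higher, which is 8.11%, and none was lower. A share of this size was thus not particular to the Trim genes. Trim34a read 9.72 and 3.51 in wild type and 9.56 and 4.46 in Tilcara, and its probe sets gave 1.12 and 1.70. The stimulated wild-type signals of these probe sets, 3.51 and 3.04, were below the floor, so both values rest in part on background. With low values raised to the floor, neither would reach the counted size. No share of the Trim genes under that setting is given here. Among 8 interferon-inducible Ifi genes Ifi202b was lower, at -1.69, and Ifi214 and Ifi208 were higher.

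Probe sets with no symbol or several had wider values. Of 9915 that reached the floor, 1242 were at least 1 higher and 769 at least 1 lower, which is 20.3%, with an SD of 0.91. The 13214 with 1 symbol had 4.06% past 1 and an SD of 0.47. The named genes do not include them.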
